A study of Mus musculus with 6 samples.

Results

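The genes described here encode the machinery that builds branched actin filaments and the machinery that forms clathrin-coated vesicles. They are 51 genes chosen by symbol for what their proteins do: subunits of the Arp2/3 complex, its N-WASP and WAVE activators, coronins and glia maturation factor, clathrin, the adaptor complex AP2 and other adaptors, intersectins, TKS scaffolds, BAR domain proteins, dynamins and synaptojanins. Of the 51, 50 were among the 11452 gene symbols of the deposited table, and all 50 passed the filter on low values. The remaining gene, Cyfip2, was not analysed here.

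RNA was sequenced from 4T1 cells, a mouse mammary tumour line that grows as epithelial cells in culture, taken as pools. One genotype was wild type for Myo1e (WT) and the other was a Myo1e knockout (KO), with 3 libraries each and no treatment named for either. The design text of the series names 3 biological replicates per genotype. The way the knockout was made, and whether a pool comes from 1 clone or many, are not stated by the labels, so p-values measure the spread between these pools only. Libraries are named by genotype and by the number in the column name, which is 1, 2 or 4. The sample titles count the pools 1 to 3, so whether a library numbered 4 is pool 3 is unknown. The number is not a labelled condition, and any cause of a difference between libraries 4 and the others cannot be told apart from the number itself. In bulk RNA, fewer cells that express a gene and less RNA per cell cannot be told apart either.

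The Arp2/3 complex starts a new actin filament on the side of an existing one, which gives the branched networks that push membranes outward at the cell edge and inward at coated pits. N-WASP and the WAVE complex switch it on, while coronins and glia maturation factor help take branches apart. In clathrin-mediated endocytosis, AP2 gathers cargo and clathrin into a pit, BAR domain proteins bend the membrane, dynamin cuts the neck and synaptojanin helps to shed the coat. Myosin 1e, the product of Myo1e, is a class I myosin found at such actin-rich sites, and its SH3 domain binds dynamin and synaptojanin 1.

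Between 17772003 and 19988206 reads per library were recovered from the table. At this depth 0 reads would allow at most 0.144 to 0.173 CPM (counts scaled to a common library size), as far as counting error goes. Myo1e itself stood at 6.87, 6.81 and 6.81 log2 CPM in KO libraries 1, 2 and 4, and at 7.09, 7.02 and 6.91 in the WT libraries. The KO libraries were lower than every WT library, by a mean of 0.18 on the log2 scale (SE 0.092), and the limma adjusted p was 1.00. With the library number as a replicate block, the SE was 0.051 and the 95% interval -0.29 to -0.062. The limma adjusted p of that blocked fit was 0.316. Myo1e reads were therefore still present in the libraries labelled KO, and the labels do not say where the mutation lies in the gene. Mitochondrially encoded genes took 0.343% and 0.309% of the reads in KO 4 and WT 4, the lowest shares of the 6, and 0.379% to 0.493% in the other 4 libraries. The part of that share in the differences of libraries 4 was not tested. Of 10 epithelial identity genes, all 10 were in the table, against 1 of 8 fibroblast genes, 0 of 12 leukocyte genes and 0 of 5 endothelial genes. The fibroblast gene was Pdgfra, at 7.88 to 12.2 CPM.

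The comparison the series was set up for was KO against WT, and the genes of branched actin and endocytosis lay close together in the 2 genotypes. No gene of the 50 passed the limma adjusted p threshold of 0.05, and 0 of the 50 had an unadjusted p below 0.05. The background was 0.0% of the 11269 genes tested at the adjusted threshold, with 23 genes at an unadjusted p below 0.05. This limma fit leaves the differences between library numbers in its error. Its median standard error was 0.16 for the 50 genes, so small differences could hardly pass. The median KO minus WT difference of the 50 was -0.0057 on the log2 scale against -0.0071 for all genes tested, and it was 0.069 without KO 4. Within the pairs numbered 1, 2 and 4 the medians were 0.027, -0.010 and -0.013. The KO library was the higher one for 31, 21 and 23 of the 50 genes in those pairs.

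Since libraries of the same number deviated together, the differences were also fitted with the number as a replicate block, which lowered the median standard error of the 50 genes from 0.16 to 0.054. No member passed the adjusted threshold in the blocked limma fit either, where the background was 0.00887%. At an unadjusted p below 0.05 the blocked fit held 6 members, or 12%, and the background was 9.91%. These were Wasl, Wipf2, Itsn2 and Sh3pxd2a, higher in KO, and Arpc5l and Arpc4, lower in KO. Their smallest limma adjusted p was 0.363. KO was above WT in 3 of 3 pairs for 9 of the 50 genes (18%) and below it in 3 of 3 pairs for 8 (16%), where the background was 15.6% and 17.0%. The 95% interval of the blocked difference lay within 0.5 either side of 0 for 49 of the 50 genes, and Dnm1 was the exception with -0.64 to 0.26. The interval lay within those limits for 9577 of the 11269 genes tested, whose median blocked standard error was larger, at 0.073.

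**Figure D1:**
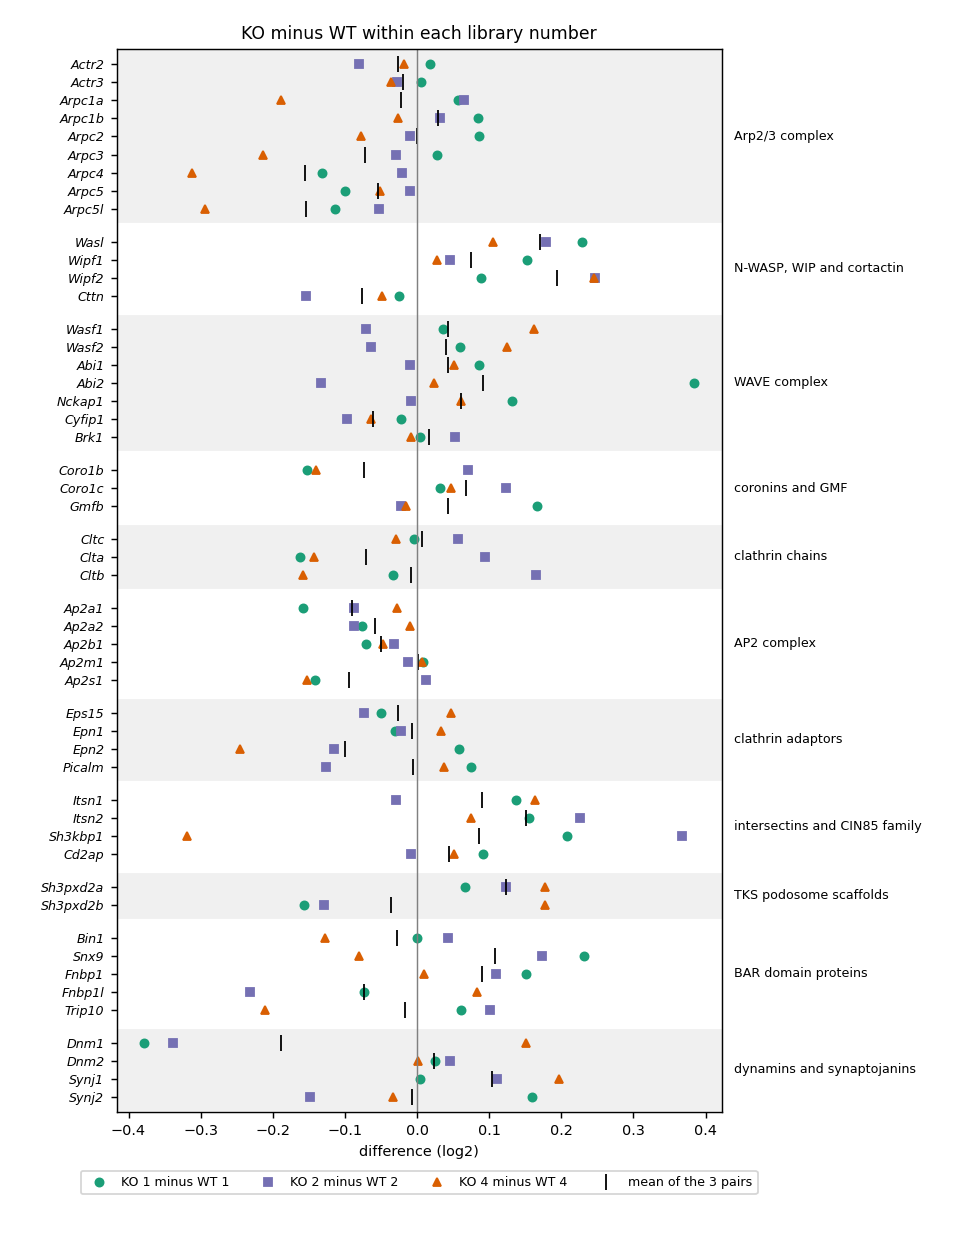
KO minus WT difference (log2, horizontal axis) of each gene within the pairs of libraries numbered 1 (circles), 2 (squares) and 4 (triangles), with the mean of the 3 pairs as a bar and genes grouped by role. Points of the 3 pairs scatter around 0, 9 genes have all 3 points above it and 8 have all 3 below it.

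The libraries numbered 4 stood apart from those numbered 1 and 2 in both genotypes, and these genes shared in that difference about as much as the rest of the transcriptome. With genotype as a covariate, 14 of the 50 genes (28%) were higher in libraries 4 and 22 (44%) were lower at a limma adjusted p under 0.05, and 14 did not pass. The background was 31.8% of all genes tested for higher and 33.8% for lower. The fit counts the 2 libraries numbered 4 as independent, so if a number marks a shared origin, 1 origin is set against 2 and the p-values and standard errors of this comparison are too small. The median absolute difference was 0.34 for the 50 genes and 0.37 for all genes tested, and the median signed difference was -0.11 against 0.0031. After quantile normalization that median was 0.0073, with 18 genes higher and 21 lower. Across the genes the differences ran from -1.11 for Coro1c to 1.26 for Dnm1, and 4 genes differed by more than 1 on the log2 scale. The sign was the same in KO and in WT for 48 of the 50, and Actr3 and Synj1 were the exceptions. Of the 11269 genes tested, 1293 differed by more than 1 and 10018 had the same sign in both genotypes. For 40 of the 50 genes the libraries numbered 4 did not overlap the other 4 libraries, and the same held for 8194 of the 11269 genes tested. Of the 36 calls, 29 were kept under every alternative setting, and those that were not are named with their group.

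**Figure D2:**
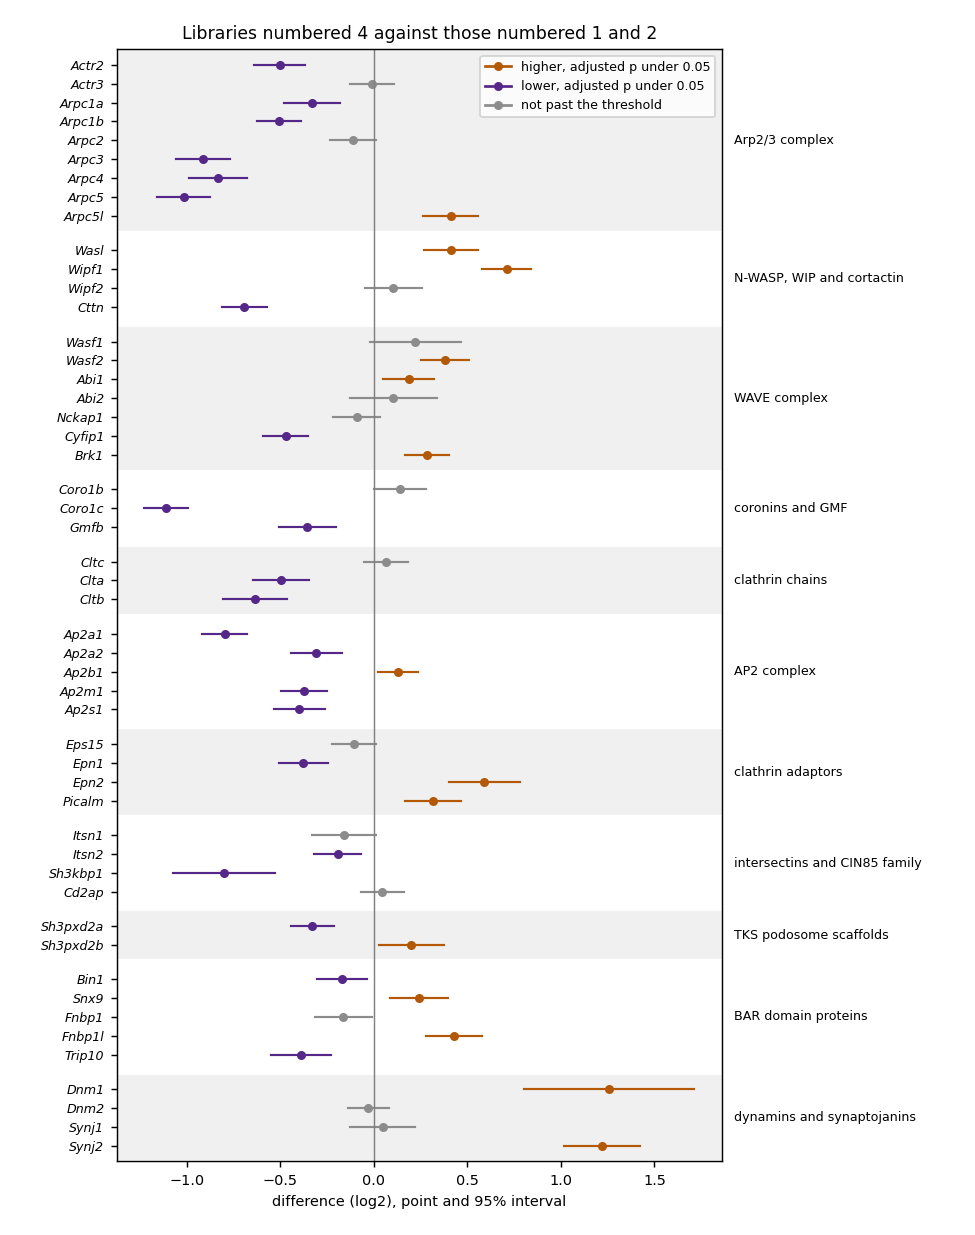
Difference of libraries 4 from libraries 1 and 2 (log2, horizontal axis) for the 50 genes grouped by role, with 95% intervals from limma and colour for the direction of a call. Coro1c, Arpc5 and Arpc3 lie farthest to the left, and Synj2 and Dnm1 farthest to the right.

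A second list moved with the same libraries: 9 of 10 S phase genes were lower in libraries 4, with a median difference of -1.36. Their summed level was 1181 to 1221 CPM in libraries 4 and 2808 to 3061 CPM in the other 4 libraries. Among the 10 epithelial identity genes, 4 were higher and 5 were lower, with a median of -0.23. The part of these differences in the values that follow was not tested.

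The Arp2/3 complex has 7 positions, and at 5 of them a subunit gene was lower in libraries 4, while Actr3 and Arpc2 were not past the threshold. Of the 9 subunit genes, 6 were lower, 1 was higher and 2 did not pass, with a median of -0.50, and after quantile normalization Actr3 and Arpc2 changed sign. Arpc5, a small subunit, had 8.02, 7.92 and 6.95 log2 CPM in KO libraries 1, 2 and 4, and 8.11, 7.93 and 7.01 in the WT libraries. Both libraries numbered 4 were about 1 log2 unit below all others, and the genotypes overlapped. The difference was -1.02 (SE 0.063, limma adjusted p = 1.56e-06), which is 0.494 times the level of libraries 1 and 2. Its paralogue Arpc5l, which can take the same position, ran the other way, with 5.99, 6.04 and 6.32 in KO libraries 1, 2 and 4 and 6.10, 6.09 and 6.61 in the WT libraries. It was 0.41 higher in libraries 4 (SE 0.064, limma adjusted p = 0.000411).

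Arpc4, a core subunit of the complex, stood at 6.93, 6.91 and 5.97 in KO libraries 1, 2 and 4 and at 7.06, 6.93 and 6.28 in the WT libraries. Libraries 4 were the lowest in each genotype, by a fitted 0.83 on the log2 scale (limma adjusted p = 7.93e-06). Arpc4 was also below WT in each pair, by 0.13, 0.021 and 0.31 for the pairs 1, 2 and 4, and its blocked limma adjusted p was 0.461. Arpc3 and Actr3 were chosen for description after their values were seen, as the subunit gene with the next lowest difference and the one nearest to 0. Arpc3 had 7.19, 7.23 and 6.19 in the KO libraries and 7.16, 7.26 and 6.40 in the WT libraries, in the order 1, 2 and 4, a difference of -0.91 (limma adjusted p = 3.38e-06). Actr3, one of the 2 actin-related proteins that form the base of the new filament, held 8.95, 8.88 and 8.89 in KO and 8.94, 8.91 and 8.93 in WT. Its libraries 4 lay among the others, with a difference of -0.010, and quantile normalization gave 0.15 (limma adjusted p = 0.0288). Actr2, the other actin-related protein, was lower by 0.50 (limma adjusted p = 7.69e-05).

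**Figure D3:**
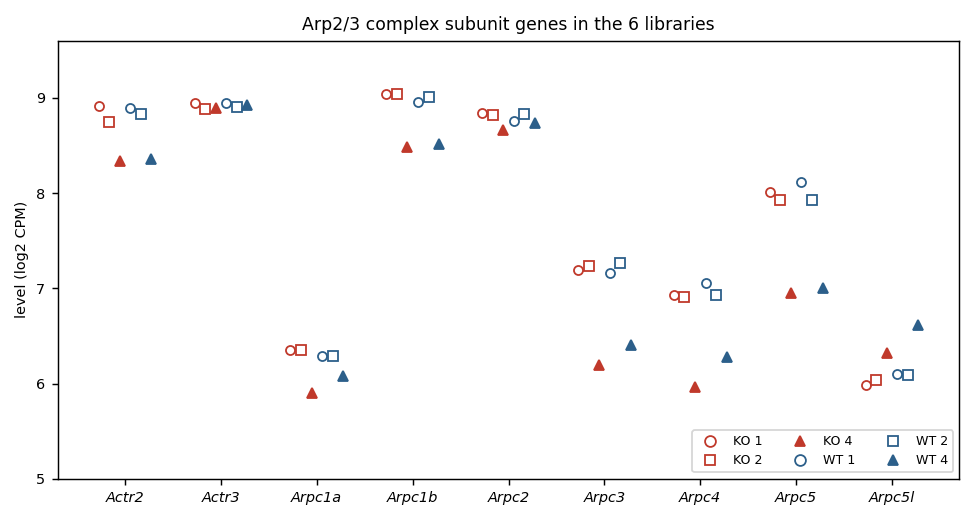
Level of the 9 Arp2/3 subunit genes (log2 CPM, vertical axis, which does not start at 0) in each of the 6 libraries, with KO in red, WT in blue and filled triangles for the libraries numbered 4. The triangles lie below the open symbols for Actr2, Arpc1a, Arpc1b, Arpc2, Arpc3, Arpc4 and Arpc5, above them for Arpc5l and among them for Actr3.

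Arpc1a and Arpc1b encode alternative forms of the WD-repeat subunit and lie side by side on chromosome 5 of GRCm38, at 145083830 to 145108761 and 145114215 to 145130705 on the plus strand. Arpc1a had 6.35, 6.35 and 5.90 in KO libraries 1, 2 and 4, and 6.29, 6.29 and 6.08 in the WT libraries. Arpc1b had 9.04, 9.04 and 8.49 in KO, and 8.95, 9.0 and 8.51 in WT, in the same order. Both were lower in libraries 4, by 0.33 and 0.51 (limma adjusted p = 0.00194 and 2.94e-05). For Arpc1a the call was lost without KO 4, where the difference was -0.21 (limma adjusted p = 0.0581). Arpc2 was at -0.11 with a limma adjusted p of 0.0985, at -0.14 without WT 1 (limma adjusted p = 0.0413) and at 0.049 after quantile normalization (limma adjusted p = 0.386).

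Per kilobase of exon, Arpc2 had the highest level of the 50 genes in WT, 244 ± 8.31 CPM per kb (SD, n = 3). Actr3 followed at 184 ± 2.24 CPM per kb, and Arpc1b at 147 ± 25.9 CPM per kb. Among the 7 positions of the complex, with the Arpc1 and Arpc5 pairs summed, Arpc2 was the highest and Arpc4 the lowest in all 6 libraries. The ratio of the highest to the lowest position was 4.20 to 4.88 in libraries 1 and 2 and 7.12 to 8.38 in libraries 4. The subunit genes were thus spread further apart in libraries 4 on this per-length scale.

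Between genotypes the Arp2/3 genes moved little. The pair medians were 0.019, -0.021 and -0.077, and KO was higher for 6, 2 and 0 of the 9 genes in the pairs 1, 2 and 4. Arpc4, Arpc5 and Arpc5l were lower in KO in 3 of 3 pairs. The mean difference of Arpc5l was -0.15 with a blocked 95% interval of -0.29 to -0.015.

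Promoter sequences are shown for the 3 Arp2/3 genes with the lowest differences in libraries 4 and for Actr3, whose level was about the same in all libraries. The choice of genes and motifs was made after these values were seen. Each run is the 250 bases before the RefSeq start on GRCm38.p6, read 5′ to 3′ on the gene's strand. Capitals mark CCGGAAG, a core bound by ETS factors, CACGTG, an E-box, GGGCGG, a GC box, and the CArG box bound by serum response factor, on either strand. The windows lie at chr1:152766292-152766541 on the plus strand for Arpc5, chr5:122391628-122391877 on the plus strand for Arpc3 and chr6:113377863-113378112 on the plus strand for Arpc4. For Actr3 the window lies at chr1:125435728-125435977 on the minus strand.
Arpc5: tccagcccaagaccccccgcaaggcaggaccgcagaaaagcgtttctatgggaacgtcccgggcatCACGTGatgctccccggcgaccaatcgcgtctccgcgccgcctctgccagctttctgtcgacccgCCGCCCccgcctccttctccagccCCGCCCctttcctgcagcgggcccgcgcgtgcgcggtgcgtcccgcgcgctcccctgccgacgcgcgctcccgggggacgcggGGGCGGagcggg
Arpc3: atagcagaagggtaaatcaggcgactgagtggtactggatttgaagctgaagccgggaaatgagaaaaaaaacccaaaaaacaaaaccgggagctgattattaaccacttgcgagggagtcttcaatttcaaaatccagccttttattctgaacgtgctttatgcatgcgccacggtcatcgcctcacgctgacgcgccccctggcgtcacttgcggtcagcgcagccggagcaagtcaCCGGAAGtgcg
Arpc4: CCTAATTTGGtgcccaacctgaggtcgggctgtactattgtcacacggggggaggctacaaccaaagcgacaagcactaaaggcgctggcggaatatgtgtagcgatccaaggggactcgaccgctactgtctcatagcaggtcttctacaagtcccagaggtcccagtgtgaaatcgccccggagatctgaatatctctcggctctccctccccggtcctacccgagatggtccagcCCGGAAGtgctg
Actr3: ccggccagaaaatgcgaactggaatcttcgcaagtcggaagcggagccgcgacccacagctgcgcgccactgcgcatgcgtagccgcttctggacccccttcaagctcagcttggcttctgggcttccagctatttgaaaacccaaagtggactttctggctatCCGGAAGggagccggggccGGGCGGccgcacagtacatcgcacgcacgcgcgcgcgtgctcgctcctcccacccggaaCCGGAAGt

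Of the 50 genes, 42 matched the promoter table. CCGGAAG was in at least 1 window of 10 of the 42 genes (23.8%) and in 7.83% of 27025 genes in the table. Among 8 Arp2/3 genes with a window it was in 5, which are Actr2, Actr3, Arpc1a, Arpc3 and Arpc4. It was therefore found both in genes that were lower in libraries 4 and in Actr3, which was not. GGGCGG was in 27 of the 42 genes (64.3%) against 35.4% of all genes, CACGTG in 6 (14.3%) against 6.86%, and the CArG box in 2 (4.76%) against 1.62%. The 27025 genes were not limited to those expressed in these cells, while all 50 members passed the filter on low values. The shares of the members and of all genes are therefore not a like comparison. The motifs do not overlap one another in the windows shown, and a match is a description of letters only.

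Wasl encodes N-WASP, which starts branching through Arp2/3, and Wipf1 and Wipf2 encode partners that stabilise it. In this group of 4, which includes Cttn, no gene passed the threshold in KO against WT. Wasl, Wipf1 and Wipf2 were higher in KO in 3 of 3 pairs and Cttn was lower in 3 of 3. The background was 15.6% for higher and 17.0% for lower. The pair medians were 0.12, 0.11 and 0.067. Wasl, described here after its values were seen, had 6.32, 6.19 and 6.62 in KO libraries 1, 2 and 4, and 6.10, 6.01 and 6.52 in the WT libraries. KO was above WT within each number, but the genotypes overlapped since libraries 4 were the highest of each. The mean difference was 0.17 (SE 0.054 with the replicate block), with a blocked 95% interval of 0.050 to 0.29 and a limma adjusted p of 0.363. Wipf2, a WIP family member that binds N-WASP, had 5.40, 5.53 and 5.61 in KO, and 5.32, 5.29 and 5.37 in WT. Every KO library was above every WT library, by a mean of 0.19, with a blocked limma adjusted p of 0.377.

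Wipf1, which encodes WIP itself, had 6.57, 6.60 and 7.26 in KO and 6.42, 6.56 and 7.23 in WT, in the order 1, 2 and 4. Libraries 4 were the highest of both genotypes, by 0.71 (SE 0.059, limma adjusted p = 8.22e-06), or 1.63 times. Wasl was higher by 0.41 in the same libraries (limma adjusted p = 0.000362), and Wipf2 differed by 0.10 (limma adjusted p = 0.200). Cttn encodes cortactin, which binds Arp2/3 and stabilises branches, and it went the other way, at -0.69 (limma adjusted p = 5.14e-06).

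The WAVE complex, which drives Arp2/3 at the leading edge downstream of Rac, had 7 genes tested. In libraries 4, 3 were higher, 1 was lower and 3 did not pass, with a median of 0.19. Wasf2, which encodes the WAVE2 protein, had 7.16, 7.15 and 7.60 in KO libraries 1, 2 and 4, and 7.10, 7.21 and 7.47 in the WT libraries. Its libraries 4 were above all others, by 0.38 (limma adjusted p = 0.000332). Wasf1, the WAVE1 gene, had 4.14, 4.31 and 4.53 in KO, and 4.10, 4.38 and 4.37 in WT, and libraries 4 overlapped the others. The fitted difference was 0.22 (limma adjusted p = 0.0960), and it was 0.29 without WT 2, where the adjusted p was 0.0243.

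Cyfip1 encodes the subunit that binds Rac, and it was the WAVE gene that was lower in libraries 4. It had 7.85, 7.89 and 7.40 in KO and 7.88, 7.99 and 7.46 in WT, a difference of -0.47 (limma adjusted p = 5.37e-05). KO was below WT in 3 of 3 pairs by a mean of 0.061, with a blocked 95% interval of -0.17 to 0.044. After the length and GC correction with the block its difference was -0.12 (limma adjusted p = 0.559). Brk1, the small subunit, was higher by 0.28 (limma adjusted p = 0.00118), and Nckap1, the large scaffold partner of Cyfip1, was at -0.092 (limma adjusted p = 0.173; 0.071 after quantile normalization). The Abl interactor Abi1 had 7.41, 7.25 and 7.52 in KO and 7.33, 7.26 and 7.47 in WT, a difference of 0.19 (limma adjusted p = 0.0219). That call was lost without KO 2 (0.15, limma adjusted p = 0.0602), without KO 4 (0.18, adjusted p = 0.133) and without WT 4 (0.19, adjusted p = 0.108), and with an untrended variance (adjusted p = 0.0660). Abi2 had 5.48, 5.33 and 5.45 in KO and 5.09, 5.46 and 5.43 in WT, and its pair differences of 0.38, -0.13 and 0.023 were the widest spread of the group.

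Coronins and glia maturation factor act after the branch is made. Coro1c, a coronin found at lamellipodia, had 8.42, 8.42 and 7.30 in KO libraries 1, 2 and 4, and 8.39, 8.30 and 7.25 in the WT libraries. Its libraries 4 were 1.11 lower (SE 0.051, limma adjusted p = 3.57e-07), or 0.463 times the others, the lowest of the 50 genes. KO was higher in 3 of 3 pairs by a mean of 0.067, with a blocked 95% interval of -0.039 to 0.17. Coro1b, a coronin that removes Arp2/3 from branches, was not lower in libraries 4. It was at 0.14 (limma adjusted p = 0.0710), at 0.17 without WT 1 (limma adjusted p = 0.0341), at 0.24 after quantile normalization (adjusted p = 0.00740) and at 0.16 after the length and GC correction (adjusted p = 0.0313). Gmfb, the glia maturation factor gene, was lower by 0.36 (limma adjusted p = 0.00138).

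The clathrin coat is made of the heavy chain, encoded by Cltc, and the light chains, encoded by Clta and Cltb. Both light chain genes were lower in libraries 4 and Cltc was not. Clta had 7.52, 7.57 and 7.0 in KO libraries 1, 2 and 4, and 7.68, 7.48 and 7.14 in the WT libraries. Cltb had 6.52, 6.51 and 5.77 in KO, and 6.55, 6.35 and 5.93 in WT. In both genes each library 4 was below every other library, by 0.50 and 0.63 (limma adjusted p = 0.000161 and 7.83e-05). Cltc differed by 0.066 (limma adjusted p = 0.287), and by 0.19 after quantile normalization (limma adjusted p = 0.00678). Between genotypes the 3 chains were higher in KO in pair 2 only, with pair medians of -0.033, 0.094 and -0.14.

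AP2 links cargo and membrane lipid to clathrin, and 4 of its 5 genes were lower in libraries 4 while 1 was higher. Ap2a1, an alpha subunit gene, had 7.05, 7.11 and 6.33 in KO libraries 1, 2 and 4, and 7.20, 7.19 and 6.35 in the WT libraries. Libraries 4 were 0.80 lower (SE 0.053, limma adjusted p = 2.33e-06). Its paralogue Ap2a2 had 7.01, 7.12 and 6.80 in KO and 7.09, 7.21 and 6.81 in WT, and was 0.31 lower (limma adjusted p = 0.00156). Ap2m1, the mu subunit gene, and Ap2s1, the sigma subunit gene, were lower by 0.38 and 0.40 (limma adjusted p = 0.000269 and 0.000335). Ap2b1, the beta subunit gene, was higher by 0.13 (limma adjusted p = 0.0393), a call lost on leaving out any library but WT 1, with values of 0.12 to 0.13 and a limma adjusted p of 0.0776 to 0.174. It was also lost after median centring (0.11, limma adjusted p = 0.0768), with an untrended variance (adjusted p = 0.0821) and after the length and GC correction (0.082, adjusted p = 0.126). Ap2a1, Ap2a2 and Ap2b1 were lower in KO in 3 of 3 pairs, by means of 0.091, 0.058 and 0.050, and none passed the threshold with the block. For Ap2b1 the length and GC correction with the block gave -0.090 (limma adjusted p = 0.632).

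The remaining clathrin adaptors were mixed. Epn2, an epsin that binds membrane lipid and ubiquitinated cargo, had 6.29, 6.38 and 6.82 in KO libraries 1, 2 and 4, and 6.23, 6.50 and 7.06 in the WT libraries. It was 0.59 higher in libraries 4 (limma adjusted p = 0.000234), or 1.5 times. Epn1, the other epsin, was 0.38 lower (limma adjusted p = 0.000385). Picalm, which sets coat size and sorts vesicle proteins, was 0.31 higher (limma adjusted p = 0.00241), and Eps15, an early scaffold of the pit, was at -0.11 (limma adjusted p = 0.0995). No member of this group had the same sign in 3 of 3 KO and WT pairs.

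Intersectins are scaffolds that join the coat to N-WASP, and Sh3kbp1 encodes CIN85, an SH3 adaptor of receptor internalisation. Itsn1 had 6.49, 6.57 and 6.42 in KO libraries 1, 2 and 4, and 6.35, 6.59 and 6.26 in the WT libraries. Its libraries 4 overlapped the others at -0.16 (limma adjusted p = 0.0925), and the value was -0.20 without WT 1 (limma adjusted p = 0.0241) and -0.36 after the length and GC correction (limma adjusted p = 0.00204). Itsn2 had 7.45, 7.43 and 7.19 in KO and 7.30, 7.20 and 7.11 in WT. Here KO was above WT in 3 of 3 pairs by a mean of 0.15, with a blocked 95% interval of 0.038 to 0.27 and a limma adjusted p of 0.377. Itsn2 was 0.19 lower in libraries 4 (limma adjusted p = 0.0123), 0.14 lower without KO 4 (adjusted p = 0.180) and 0.084 lower after quantile normalization (adjusted p = 0.193). Cd2ap, the CIN85 relative that tethers actin to membranes, was at 0.046 (limma adjusted p = 0.451), and at 0.21 after quantile normalization (limma adjusted p = 0.00442).

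Sh3kbp1 had 5.80, 5.87 and 4.73 in KO libraries 1, 2 and 4, and 5.60, 5.50 and 5.05 in the WT libraries. It was the gene whose KO minus WT difference turned most between pairs, at 0.21, 0.37 and -0.32. KO 4 was the lowest library and KO 1 and KO 2 were the highest. Libraries 4 were 0.80 lower (SE 0.12, limma adjusted p = 0.000312), by 1.10 in KO and 0.50 in WT.

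The test of that kind of turn is the interaction of genotype and number, and no member passed it, where the background was 0.0%. At an unadjusted p below 0.05 there were 4 members (8%) against a background of 3.9%. These were Sh3kbp1 (-0.61), Sh3pxd2b (0.32), Trip10 (-0.29) and Snx9 (-0.28), and the limma adjusted p of each was 0.997. Sh3kbp1 passed without WT 1 (-0.65, limma adjusted p = 0.00567) and without WT 2 (-0.56, limma adjusted p = 0.0248), in fits where the lone WT library outside number 4 was assumed to vary like the KO libraries. In those fits 145 and 269 of all genes passed.

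The TKS proteins scaffold podosomes and invadopodia, the actin-rich feet that degrade matrix. Sh3pxd2a, which encodes TKS5, had 8.10, 8.09 and 7.81 in KO libraries 1, 2 and 4, and 8.03, 7.97 and 7.63 in the WT libraries. KO was above WT within each number, by 0.066, 0.12 and 0.18, with a blocked 95% interval of 0.015 to 0.23 and a limma adjusted p of 0.443. The mean of 0.12 became 0.027 after the length and GC correction with the block, where the limma adjusted p was 0.904. Its libraries 4 were 0.33 lower (limma adjusted p = 0.000394). Sh3pxd2b, which encodes TKS4, had 6.58, 6.68 and 6.99 in KO and 6.74, 6.81 and 6.82 in WT. It was 0.20 higher in libraries 4 (limma adjusted p = 0.0447), a difference that came to 0.36 in KO and 0.038 in WT, and the call was lost without KO 1 (0.16, limma adjusted p = 0.127), KO 2 (0.20, adjusted p = 0.0893) or KO 4 (0.038, adjusted p = 0.722). It was lost too after median centring (0.18, limma adjusted p = 0.0706), with an untrended variance (adjusted p = 0.112) and after the length and GC correction (0.10, adjusted p = 0.189).

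BAR domain proteins sense or impose membrane curvature and bring N-WASP and dynamin to it. Fnbp1l, which encodes TOCA-1, had 7.19, 7.09 and 7.69 in KO libraries 1, 2 and 4, and 7.26, 7.32 and 7.60 in the WT libraries. It was 0.43 higher in libraries 4 (limma adjusted p = 0.000371). Its relative Fnbp1, the FBP17 gene, had 5.28, 5.25 and 5.04 in KO and 5.13, 5.14 and 5.03 in WT. KO was above WT in 3 of 3 pairs by a mean of 0.090, which became 0.011 after the length and GC correction with the block. Libraries 4 were at -0.16 (limma adjusted p = 0.0566), at -0.19 after median centring (adjusted p = 0.0343) or quantile normalization (adjusted p = 0.0280), and at -0.27 after the length and GC correction (adjusted p = 0.00840). Trip10, the CIP4 gene of the same family, was lower by 0.39 (limma adjusted p = 0.000976). Snx9, a sorting nexin that recruits dynamin, was 0.24 higher (limma adjusted p = 0.0126), 0.097 higher without WT 4 (adjusted p = 0.301), and had an adjusted p of 0.0510 with an untrended variance. Bin1, an amphiphysin, was 0.17 lower (limma adjusted p = 0.0276), a call lost without KO 1 (-0.18, limma adjusted p = 0.0561), KO 2 (-0.14, adjusted p = 0.0775) or KO 4 (-0.096, adjusted p = 0.343), after quantile normalization (-0.080, adjusted p = 0.248) and with an untrended variance (adjusted p = 0.0688).

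Dynamin and synaptojanin 1, the partners that bind the myosin 1e SH3 domain, did not pass the threshold between genotypes. Dnm2, the dynamin of most tissues, had 7.55, 7.54 and 7.5 in KO libraries 1, 2 and 4, and 7.53, 7.49 and 7.5 in the WT libraries. The KO minus WT difference was 0.024 with a blocked 95% interval of -0.080 to 0.13, and libraries 4 differed by -0.031 (limma adjusted p = 0.593), or 0.065 after quantile normalization. Synj1, a phosphoinositide phosphatase, had 5.18, 5.13 and 5.27 in KO and 5.18, 5.02 and 5.07 in WT. Its KO minus WT difference was 0.10 with a blocked 95% interval of -0.050 to 0.26, and 0.040 after the length and GC correction with the block.

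Synj2, the second synaptojanin gene, had 5.62, 5.66 and 6.84 in KO libraries 1, 2 and 4, and 5.46, 5.81 and 6.87 in the WT libraries. Both libraries 4 were more than 1 log2 unit above all others, at 1.22 (SE 0.090, limma adjusted p = 4.39e-06), or 2.33 times, and the genotypes overlapped. Synj2 lies beside Snx9 on chromosome 17 of GRCm38, at 5941280 to 6044290 against 5841329 to 5931954, both on the plus strand. Dnm1, the dynamin best known from neurons, was barely expressed, with 33, 30 and 104 reads in KO libraries 1, 2 and 4 and 43, 41 and 84 reads in the WT libraries. On the log2 CPM scale it was 1.26 higher in libraries 4 (SE 0.20, limma adjusted p = 0.000481). In WT it held 0.617 ± 0.272 CPM per kb (SD, n = 3), against 45.2 ± 0.556 CPM per kb for Dnm2. Of 5 neuronal paralogues listed for this machinery the table held 1, Dnajc6, at 1.86 to 4.94 CPM.

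Because several positions in this machinery can be filled by either of 2 paralogues, the share of the first in each pair was taken from CPM per kb of exon. The size of a share depends on the exons annotated for each gene, such as 19992 bases for Itsn1 and 6080 for Itsn2. In percentage points the change in libraries 4 was widest for Arpc5, whose share of Arpc5 plus Arpc5l was 71.5% to 74.0% in libraries 1 and 2 and 47.9% to 52.1% in libraries 4. The summed level of that pair was 183 CPM per kb in libraries 1 and 2 and 132 CPM per kb in libraries 4. Synj1 held 37.2% to 45.7% of the synaptojanin pair in libraries 1 and 2, and 22.7% to 25.6% in libraries 4. Ap2a1 went from 57.1% to 59.3% of the alpha subunits in libraries 1 and 2 to 49.3% to 49.6% in libraries 4. Sh3pxd2a held 59.9% to 65.8% in libraries 1 and 2 and 54.1% in both libraries 4.

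The other shares differed by fewer percentage points. Fnbp1 held 10.8% to 13.3% in libraries 1 and 2, against 8.08% to 8.46% in libraries 4. Arpc1a held 22.5% to 23.2% against 24.1% to 26.2%, Clta 71.4% to 73.2% against 74.3% to 74.5%, and Wasf1 19.8% to 21.9% against 18.9% to 19.3%. Dnm1 held 0.751% to 1.01% of the dynamin pair against 2.03% to 2.25%. As log2 ratios of the first gene to the second, the changes were -1.43 for the Arpc5 pair, 1.29 for the dynamins, -1.17 for the synaptojanins, -0.59 for the Fnbp1 pair, -0.53 for the TKS pair and -0.49 for the Ap2a1 pair. The shares of Abi1 and Itsn1 overlapped between the numbers, so 9 of the 11 pairs did not. Single genes did not overlap for 8194 of the 11269 tested, and no such count was made for pairs of other genes. Between genotypes the log2 ratio of the pairs differed by -0.21 for the dynamins to 0.16 for Fnbp1 and Fnbp1l.

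**Figure D4:**
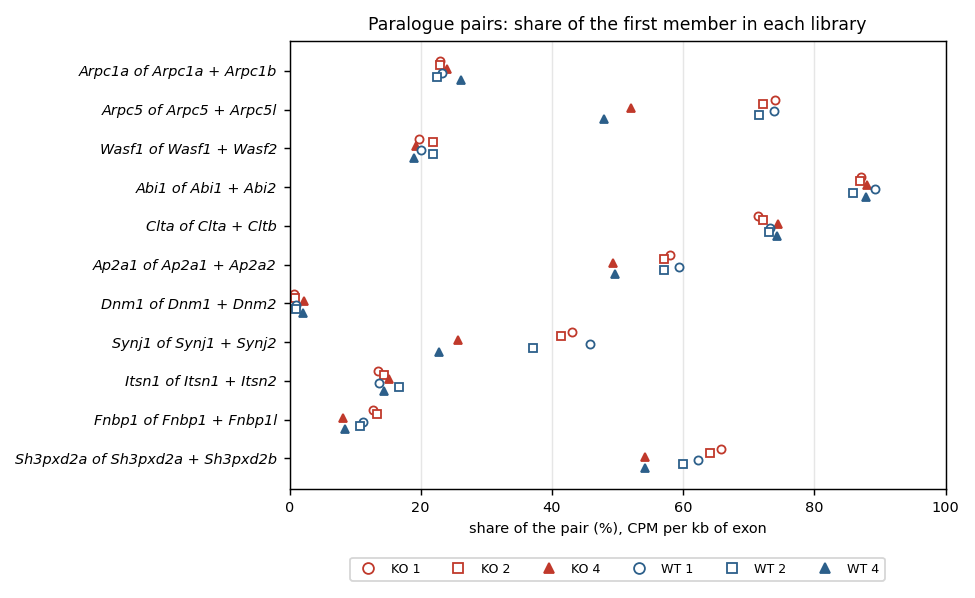
Share of the first gene in each of 11 paralogue pairs (percent of the pair's CPM per kb of exon, horizontal axis) in the 6 libraries, KO in red and WT in blue, with filled triangles for the libraries numbered 4. The triangles stand apart for the Arpc5, Synj1 and Ap2a1 pairs and lie among the open symbols for Abi1 and Itsn1, while red and blue are mixed.

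The KO minus WT differences of these genes went with transcript length in some pairs, and with GC content in the pair numbered 1. Across the 50 genes, which share their libraries and are not independent replicates, Spearman's rho between the longest transcript and the difference was 0.372, -0.0889 and 0.598 in the pairs 1, 2 and 4. Over 11174 genes it was 0.186, 0.115 and 0.386. For GC content in place of length, rho was -0.431, 0.057 and -0.144 across the 50 genes. Over the 11174 genes the GC values were -0.218, 0.031 and -0.018. Of the 25 members with transcripts of 836 to 3631 bases, 19 were lower in KO 4 than in WT 4, with a median of -0.052. Of the 25 with transcripts of 4171 to 14012 bases, 8 were lower, with a median of 0.046. All 9 Arp2/3 genes are among the shorter members, and all 9 were lower in KO 4 than in WT 4. After a correction for length and GC content, the blocked fit held 3 members at an unadjusted p below 0.05 in place of 6, and 2 were in both sets, Wasl and Wipf2. The third after the correction was Cyfip1. Over all genes tested, 902 of 11174 had an unadjusted p below 0.05 in the blocked fit after the correction. Before it the count was 1117 of 11269. For the difference of libraries 4 from libraries 1 and 2, rho with length was 0.292 across the 50 genes and 0.092 over the 11174 genes. Its median was -0.38 for the 25 shorter members, which include the 9 Arp2/3 genes, and 0.066 for the 25 longer ones. For GC content rho was -0.176 and 0.0016. Whether length has a part in the difference of libraries 4 was not tested.

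**Figure D5:**
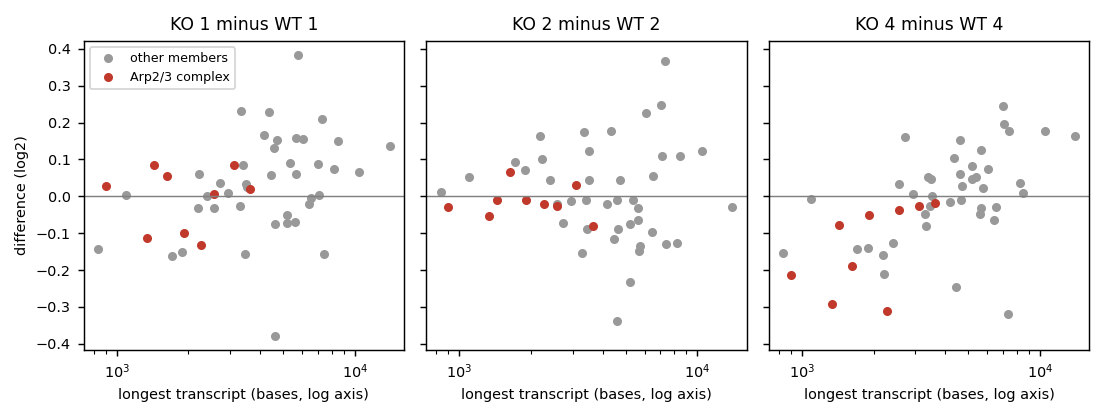
KO minus WT difference (log2, vertical axis) of the 50 genes against the length of the longest transcript (bases, log axis) in the pairs numbered 1, 2 and 4, with Arp2/3 genes in red. Shorter transcripts lie lower in the pair numbered 4, where rho was 0.598, and not in the pair numbered 2, where it was -0.0889.

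Some of these values can hold reads of a neighbour, and the labels do not state whether the counting used strand. In the GENCODE vM21 annotation 17 of the 50 genes share exonic bases with another gene, 10 of them with a gene in the table. More than 10% of the exonic bases are shared for 6 genes: Arpc1b with Pdap1 (18.2%), Ap2a1 with Fuz (16.7%), Coro1b with Ptprcap (13.48%), Arpc4 with Ttll3 (12.2%), Cyfip1 with Nipa2 (11%) and Itsn2 with Gm48678 (11%). Ttll3 and Ptprcap lie on the same strand as their member, where a strand setting cannot separate the reads. The other neighbours in this list lie on the opposite strand. For these pairs the level of the member is uncertain by whatever the neighbour adds. Ptprcap and Gm48678 were not among the genes of the table. Synj2 shares 3.56% of its exonic bases with Serac1, and no shared bases were listed for Arpc3, Arpc5 or Actr3.

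A further 74 genes of the same pathways were listed, such as endophilins, syndapins, kinases of the coat, WASH subunits and cargo receptors, of which 58 were in the table and 57 were tested. None passed in KO against WT with limma, and 1 had an unadjusted p below 0.05. This was the beta-arrestin gene Arrb1 at -0.71, named after its values were seen. Arrb1 had few reads, with 41, 29 and 53 in KO libraries 1, 2 and 4 and 71, 64 and 60 in the WT libraries. Its blocked limma adjusted p was 0.314. With the replicate block none of the 57 passed either. In that limma fit 6 (10.5%) had an unadjusted p below 0.05, where the background was 9.91%. In libraries 4, 19 (33.3%) were higher, 16 (28.1%) were lower and 22 did not pass, with a median of 0.082. The background was 31.8% for higher and 33.8% for lower. Among the lowest was Tfrc, which encodes the transferrin receptor, a cargo that AP2-clathrin coats take up. It had 9.59, 9.26 and 6.94 in KO libraries 1, 2 and 4, and 9.53, 9.06 and 6.95 in the WT libraries, a difference of -2.42. The highest were Snx33, a relative of Snx9, at 1.11, and Dnajc6, the auxilin that uncoats vesicles, at 0.87.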

How the data were processed

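Stranded mRNA libraries of 3 Myo1e WT and 3 KO pools of 4T1 cells were compared. The tools named for the upstream steps are Trimmomatic 0.39, STAR 2.7.3a, featureCounts (Subread 1.6.4) and edgeR, on build GRCm38, per the submitters' processing notes. The deposited values are log2 CPM made by the authors. Their prior, annotation and strand setting are not stated in the labels. Whole reads were recovered from them: 100% of the values were whole multiples of 1 step per library within 0.01, with a prior of 0.909 to 1.10 reads.

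Columns numbered 1 and 2 were matched to the pools of that number, and columns numbered 4 to their genotype only. Kept were genes that reached log2 CPM 0 in 3 or more of the 6 libraries, which left 11269 and dropped 183. Tests used limma 3.58.1 in R 4.3.3 with a variance trend, on all genes, two-sided, with Benjamini-Hochberg adjustment and a threshold of 0.05: KO against WT, number 4 against 1 and 2 with genotype as covariate, and their interaction. The self-test on simulated data ran before these fits. Log2 differences carry the prior of the deposited values and so are too small for genes with few reads.

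Deviations of same-numbered KO and WT libraries from their genotype means correlated at 0.744, 0.784 and 0.921 across 11269 genes for the numbers 1, 2 and 4. The numbers were taken to pair the libraries from these values, not from a label. The crossed pairs of 1 and 2 gave 0.687 (KO 1, WT 2) and 0.617 (KO 2, WT 1). Each genotype mean includes library 4, so libraries 1 and 2 deviate together wherever library 4 stands apart. The values therefore pair libraries 1 and 2 by number only weakly. Over all genes tested, a term for number 4 alone gave a median standard error of 0.077, against 0.073 with the block.

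Exon lengths, coordinates and GC content came from GENCODE vM21 on GRCm38, and promoters from RefSeq on GRCm38.p6. CPM per kb used the union of exons of the basic annotation, and gene overlaps used the full annotation. Levels and ranks per kb therefore depend on the exons annotated for each gene. Alternatives were pseudocounts of 1 and 0.25 CPM, a floor at log2 CPM 1, no filter at all, median centring, quantile normalization, untrended or robust variance, voom on the recovered reads, the replicate block, a length and GC correction, libraries 1 and 2 only, a term for number 4, and leaving out each library. The blocked voom fit was added after seeing the data.

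The members, lists and tests were chosen with earlier results of these data known. Genes named with values in every library were the members past a threshold in KO against WT, in each group the member with the largest difference in each comparison (for KO minus WT, among those of the same sign in 3 pairs), and both genes of listed paralogue pairs. Of the other pathway genes, the 2 highest and the 2 lowest in libraries 4 were to be named, and 1 of these is not reported here. Any other gene given in every library was chosen after its values were seen.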

Additional observations from a re-analysis of the deposited data

How the results depend on the processing

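KO against WT gave 0 members past the limma threshold in the fit without covariates and under every alternative run, including the replicate block (median difference -0.0057) and voom on the recovered reads, with or without the block. The median KO minus WT difference ran from -0.026 without KO 1 to 0.069 without KO 4. Of the 29 named genes, 5 changed sign in libraries 1 and 2 only, 3 after the length and GC correction with the replicate block, and 6 to 12 on leaving out a library, none of them past the threshold. The fit on libraries 1 and 2 only called 178 genes overall and no member, on 1 residual degree of freedom. In libraries 4 against 1 and 2, 30 to 39 members passed over all settings. The median of -0.11 was -0.13 after median centring and 0.0073 after quantile normalization, where 18 members were higher and 21 lower, and ran from -0.13 without WT 1 to -0.093 without WT 2. For single genes in libraries 4, quantile normalization turned the sign of Actr3, Arpc2, Nckap1 and Dnm2, and the length and GC correction gave 0.038 for Actr3, -0.010 for Synj1, -0.36 for Itsn1 (limma adjusted p = 0.00204) and 0.10 for Sh3pxd2b (limma adjusted p = 0.189). The interaction called 0 members in each setting but those without WT 1 and without WT 2, which called 1 member each, so the count ran from 0 to 1. The causes of these shifts were not tested. Among the members, depth limits Dnm1 most, with 30 to 104 reads per library.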
